A study of Mus musculus with 12 samples.

Results

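Microglia from App NL-G-F mice given vehicle were compared with microglia of veh-treated WT mice, which are 6 of the 12 libraries of the series, 3 mice of each genotype. The 6 libraries were chosen by their names, and no measured value entered the choice. All 6 mice were male and had received 24 intravenous injections of PBS, the vehicle (veh), over 12 weeks from the age of 9 months, followed by 4 weeks without injections. App NL-G-F animals have a humanised amyloid-β sequence with 3 familial Alzheimer's disease mutations (Swedish, Iberian and Arctic) in the mouse App gene itself, so that the gene is read from its own promoter in every cell that uses it. The WT mice were of the background strain C57BL/6J, and whether they were littermates of the knock-in mice is not given in the sources used here. Cells carrying CD11b, an integrin subunit of microglia and other myeloid cells, were taken with magnetic beads from cerebral cortex that had been digested with papain for 40 min. The other 6 libraries come from mice of the same genotypes given rh Bri2 BRICHOS R221E, a recombinant chaperone domain, and are used below as a second set of mice.

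Microglia are the resident phagocytes of the brain. In a healthy brain they keep a homeostatic set of transcripts that depends on TGF-β and on the transcription factors SALL1 and PU.1, and they survey their surroundings with purine and chemokine receptors. Around amyloid plaques they take up aggregated protein and lipid through receptors such as TREM2, break the cargo down in lysosomes, export the cholesterol on apolipoprotein E, and acquire a set of transcripts described as that of disease-associated microglia.

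Raw counts had been deposited for 55487 genes, and 15425 of them passed the filter on low counts and were tested. The 6 libraries held 12433402 to 16391851 counts, so that a count of 3, taken as the limit of detection, corresponds to 0.183 to 0.241 CPM (counts scaled to a common library size). Levels below are CPM given as the mean ± SD of 3 mice or mouse by mouse in the order of their numbers. What the numbers stand for is not given in the sources used here. Differences are log2 fold changes of App NL-G-F over WT ± their SE from edgeR's quasi-likelihood test, and a gene is called upregulated (higher) or downregulated (lower) when its p-value, adjusted by Benjamini-Hochberg, was under 0.05.

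App itself, which encodes the amyloid precursor protein, had 837, 702 and 623 CPM in the WT mice and 549, 546 and 615 CPM in the knock-in mice. Its log2 fold change was -0.34 ± 0.16 with an adjusted p of 0.12. The highest knock-in mouse lay just below the lowest WT mouse, but the groups did not overlap for 50.9% of all tested genes. App was not called in the fit over all 12 libraries. It passed in a DESeq2 fit (-0.33, adjusted p = 0.00847) and an edgeR fit (-0.34, adjusted p = 0.0417) of the 6 libraries alone. It also passed with library totals alone (-0.53, adjusted p = 0.0257). The counts do not separate the humanised from the mouse sequence, and they do not check the genotype.

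Markers of microglia were abundant in both genotypes, and markers of other cells were present at unequal levels. The microglial and myeloid identity score, the mean log2 CPM of 14 markers such as Cx3cr1 and Csf1r, was 10.67, 10.77 and 10.78 in the WT mice and 10.60, 10.62 and 10.71 in the knock-in mice. Its members changed in both directions, with 6 of the 14 called higher and 6 lower, so the similar means do not stand for unchanged markers. Cst3, the secreted protease inhibitor cystatin C, was the most abundant transcript per exon length in both genotypes. Astrocyte markers scored 4.97, 4.89 and 4.49 in the WT mice and 7.35, 7.19 and 5.78 in the knock-in mice, a non-overlapping difference, and 16 of 18 were called higher, among them Gfap (4.14 ± 0.43), the intermediate filament of astrocytes, Slc1a2 (3.0), the glutamate transporter, and Aqp4 (2.54), the water channel. These markers made up 0.109% of the counts of the WT and 0.449% of the App NL-G-F libraries on average. The third App NL-G-F library stood apart with the lowest astrocyte score of its group, at summed marker levels of 2091 CPM against 6468 and 5773 CPM in the other two.

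Several other markers were lower in the App NL-G-F libraries, where 16.9% of all tested genes were called lower and 20.1% higher. Oligodendrocyte markers scored 7.99, 7.36 and 6.72 in the WT mice and 6.22, 6.11 and 6.59 in the knock-in mice, so that the third library of each genotype lay close to the other, and Mbp (-1.93 ± 0.42) and Mobp (-2.0 ± 0.42), which encode myelin proteins, were the 2 of 14 called (8 in a fit of the 6 libraries alone). Mbp, the most abundant of them, ranged over 7069.5, 10718 and 5981 CPM in WT and 1336, 1934 and 2986 CPM in App NL-G-F mice. Of 16 neuronal markers 10 were lower and 1, Map2 (1.11), was higher, and 4 to 6 were called lower without any single library other than the third App NL-G-F one. These 16 were scarce, with summed levels of 78.4 ± 11.6 CPM in WT and 59.4 ± 9.54 CPM in App NL-G-F mice. Endothelial markers were lower in 11 of 15 cases (Pecam1 -1.19, Cldn5 -0.81) with Bsg (0.21) as the one higher, and markers of border-associated macrophages, which line vessels and meninges, in 9 of 12 (Mrc1 -1.15, Cd163 -1.06, Lyve1 -1.04), with Colec12 (2.17) higher. Mural cells (smooth muscle and pericytes) had 3 of 12 markers lower and 1 higher, but 8 lower without the second App NL-G-F library. Of the remaining lists, oligodendrocyte precursors had 2 of 10 markers higher and 0 lower, fibroblasts 0 of 9 higher and 1 lower, ependymal cells 0 of 8 and 1, monocytes 1 of 10 and 4, T and NK cells 1 of 8 and 0, B cells 0 of 8 and 2, and erythrocytes 0 of 6 and 1. Summed marker levels of monocytes were higher in the knock-in mice, at 1246, 1597 and 1247 CPM against 825, 800 and 1029 CPM in WT. Contrary to the scores, summed levels overlapped for endothelial and ependymal markers and did not for oligodendrocyte precursor and neutrophil markers. The T cell genes Cd3d, Cd3e and Cd3g had at most 5 counts in any of the 6 libraries. Because this is bulk RNA, fewer cells of a type and less RNA per cell cannot be told apart.

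Neutrophil granule transcripts set 2 WT libraries apart. Their score was 3.83, 3.96 and 0.53 in the WT mice and -0.53, 0.59 and 0.63 in the knock-in mice, so the third WT library lay with the App NL-G-F libraries. S100a9, a calcium-binding protein of neutrophils, had 146, 122 and 17.8 CPM in the WT mice and 7.12, 19.0 and 11.6 CPM in the knock-in mice, and although 11 of 13 markers were called lower, the score did not separate the genotypes (exact permutation p = 0.3). Without the first WT library 6 of the markers were called lower, and without the first App NL-G-F library 4. Choroid plexus markers, led by Ttr at 841, 802 and 3679 CPM in WT and 980.1, 599 and 1834 CPM in App NL-G-F mice, were highest in the third WT library, and 0 of 10 were called. Over all 15 lists of other cells 8 scores did not overlap between genotypes, and neither did 50.9% of all tested genes. Moreover, 3 against 3 mice cannot give an exact permutation p below 0.1, and none of these scores can pass the threshold.

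**Figure D1:**
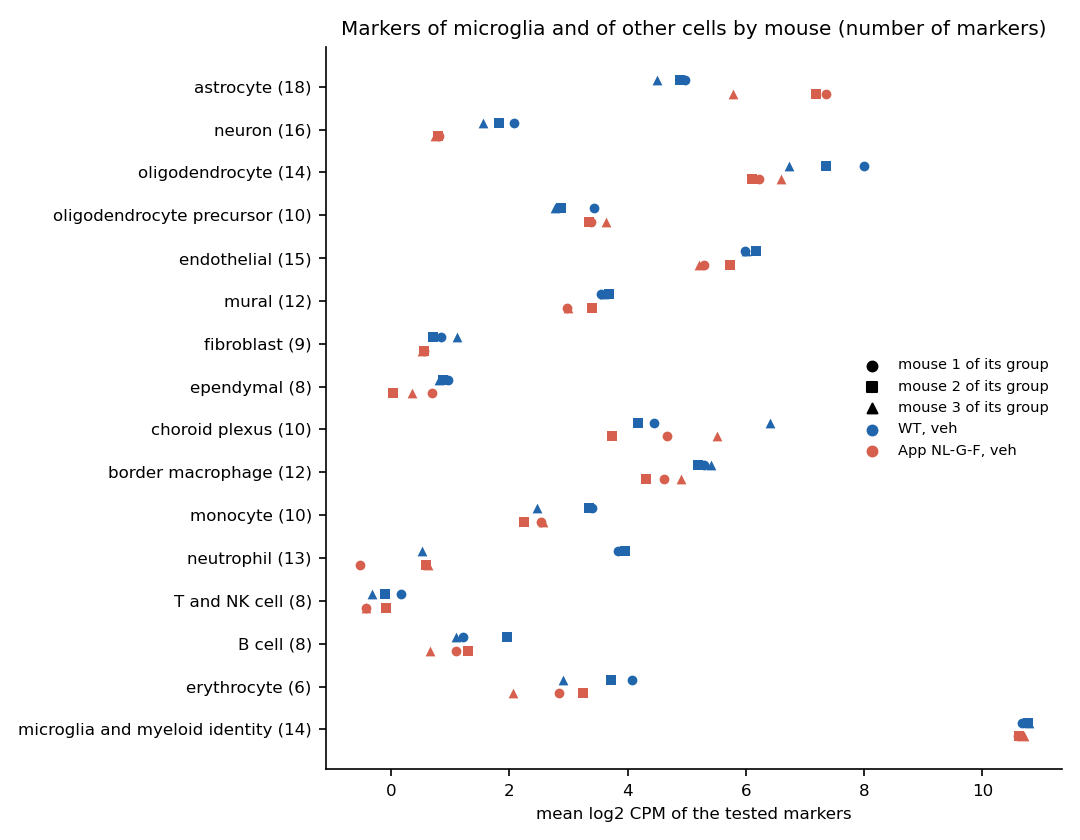
Mean log2 CPM of marker genes (x axis) for microglia and 15 other cell types (rows, with the number of tested markers), 1 point per veh-treated mouse, WT in blue and App NL-G-F in red. Astrocyte markers are higher in the 3 App NL-G-F mice, those of neurons, endothelium and border macrophages are lower, and the third WT mouse (triangle) lies apart from the other WT mice for neutrophil and choroid plexus markers.

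Over all tested genes, 5710 (37.0%) differed between the genotypes, 3099 (20.1%) higher and 2611 (16.9%) lower in App NL-G-F mice, and the median log2 fold change of all tested genes was -0.02. The large changes were mostly increases. Of 1601 called genes that changed at least by a factor of 2, 1063 were higher and 538 lower, and beyond a factor of 8 there were 127 against 31. The levels of the 3 and 3 mice did not overlap for 7846 genes (50.9%), which is the background for every statement on overlap, above and below. Likewise, the 20.1% higher and 16.9% lower are the background for every count of called list members. Without the third WT library 4880 genes were called, and without the third App NL-G-F library 5392. Scaling by library totals alone, without a correction for the strongly increased transcripts, lowered the median of all genes by 0.19 and changed the split to 2004 higher and 5198 lower. Upper quartile scaling lowered the median by 0.056 and turned the split too, to 2699 higher and 3225 lower. The changes below are relative to the TMM scaling. Of 37 gene lists described below, 31 had more higher than lower members, and 20 with library totals alone.

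The genes with the highest fold changes, among called genes of at least 5 CPM whose mice did not overlap, were often close to the limit of detection in WT mice, where the size of a fold change is uncertain. Baiap2l2, which encodes a membrane-bending adaptor of the I-BAR family, had 0.137, 0.356 and 1.04 CPM in the WT mice and 116, 122 and 128 CPM in the knock-in mice (7.93 ± 0.29). The others were Mamdc2 (7.28), Atp6v0d2 (7.18), Gpnmb (7.05), Cst7 (6.80), Dkk2 (6.64), Trpm1 (6.61), Lgi2 (6.14), Kcnk9 (6.0) and Spp1 (5.96). Dkk2 encodes a secreted Wnt antagonist, Trpm1 a cation channel best known from retinal bipolar cells, Lgi2 a secreted leucine-rich repeat protein and Kcnk9 a background potassium channel. In WT mice Gpnmb, Cst7, Spp1 and Mamdc2 were each highest in the third library, with Gpnmb at 3.42, 4.15 and 26.9 CPM and Mamdc2 at 0.479, 1.25 and 3.73 CPM. Under the same rule the lowest fold changes were smaller in size, while the lowest value over all tested genes was -5.58. They began with Bank1 (-2.81), a B cell scaffold protein, Anxa1 (-2.47), Il7r (-2.42), Gpr165 (-2.41) and Ccdc162 (-2.31). Next came Tspan18 (-2.25), Slco4a1 (-2.14), Serpinf1 (-2.13), Gp9 (-2.13) and Crybb1 (-2.13), a crystallin that microglia express. Anxa1 was uneven in the WT mice, at 15.5, 12.6 and 3.65 CPM, against 1.43, 2.04 and 2.30 CPM in the knock-in mice. Bank1 had 52.5, 57 and 56.7 CPM in the WT mice and 6.86, 8.27 and 8.67 CPM in the knock-in mice.

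The 10 genes with the lowest p-values were Lpl, Axl, Rab7b, Hif1a, Itgax, Igf1, Anxa5, Apoe, Fam20c and Dkk2, and all were higher. Rab7b, a small GTPase of late endosomes, had 7.05, 6.46 and 7.08 CPM in the WT mice and 121, 119.6 and 118 CPM in the knock-in mice (4.12 ± 0.11). Igf1, the growth factor, had 12.8, 11.7 and 15.2 CPM in the WT mice and 253, 254 and 257 CPM in the knock-in mice (4.27 ± 0.12), and Fam20c, a kinase of secreted proteins, rose from 14.5 to 183 CPM. Anxa5, which binds phosphatidylserine, changed by less (1.67 ± 0.05), with 87.2, 88.3 and 90.7 against 273, 292 and 279 CPM.

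**Figure D2:**
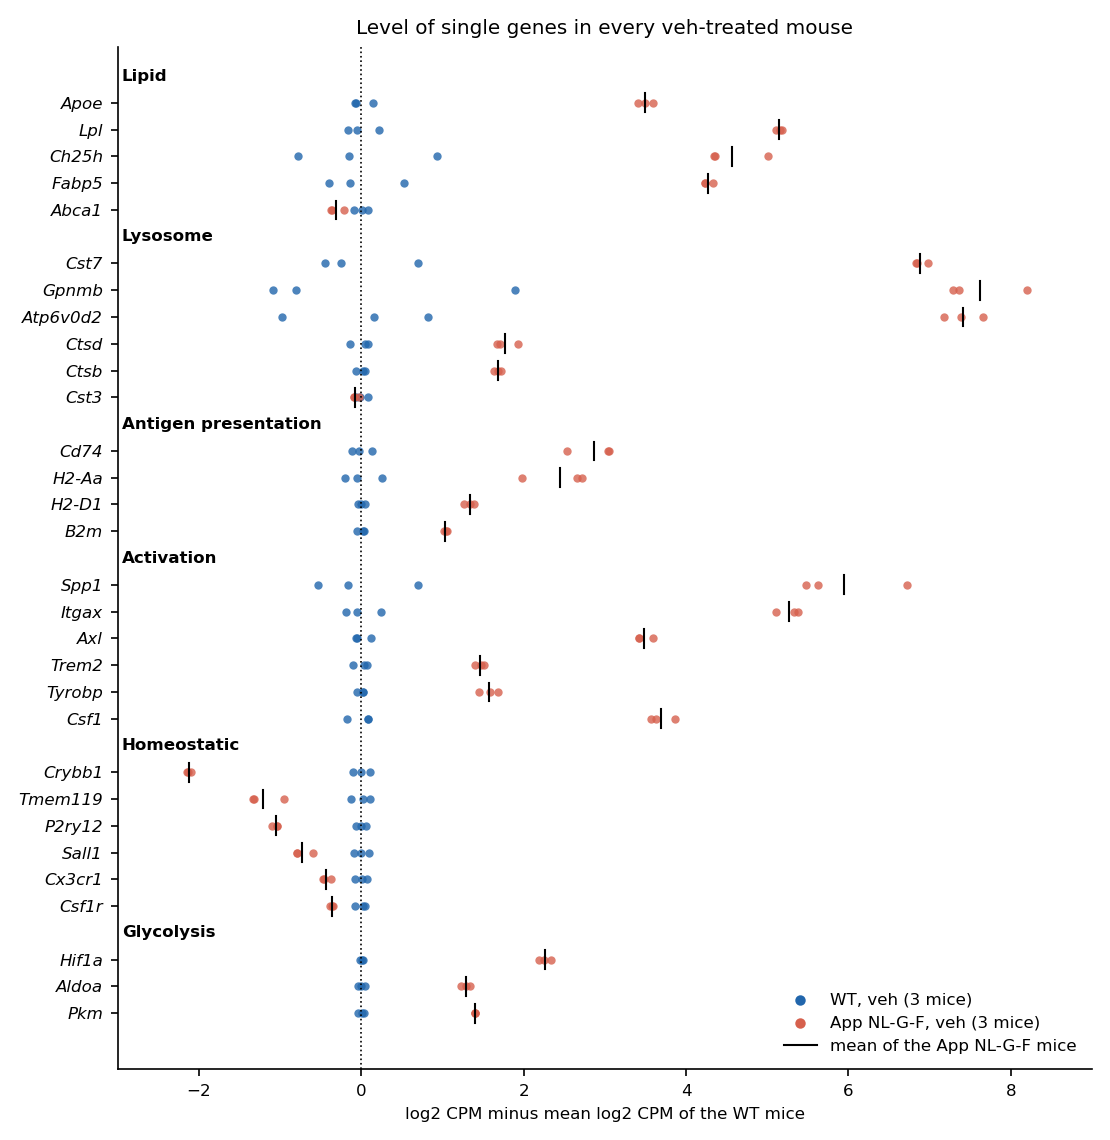
Log2 CPM of single genes minus the mean log2 CPM of the WT mice (x axis), by program (rows), 1 point per veh-treated mouse, WT in blue and App NL-G-F in red, with a black tick at the knock-in mean. The 2 groups of points are separate in every row but that of Cst3, and the WT mice are spread more widely for Gpnmb and Atp6v0d2 than for P2ry12 or Hif1a.

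Lysosomal genes were mostly upregulated. Over the 141 tested genes of 6 lists 85 were higher and 21 lower, with a median log2 fold change of 0.37 against -0.02 over all genes. Among proteases and their inhibitors 12 of 18 were higher. Ctsd, the aspartic protease cathepsin D (chromosome 7, 142375911 to 142388038 in GRCm38), had 4209, 4784 and 4896 CPM in the WT mice and 15071, 14669 and 17554 CPM in the knock-in mice (1.77 ± 0.11), and its share of all counts went from 0.495 ± 0.0354% to 1.48 ± 0.143%. The cysteine proteases cathepsin B and L, Ctsb (1.68 ± 0.07) and Ctsl (1.86 ± 0.07), and the carboxypeptidase Ctsz (1.54) rose by similar amounts, and Ctss, already among the most abundant transcripts of WT microglia, by 0.50 ± 0.08. Ctse, an aspartic protease of endosomes, rose from 1.98 to 47.8 CPM (4.58). Cst7, cystatin F, which inhibits cathepsins C and L inside the lysosome (chromosome 2, 150570415 to 150578944), had 14.9, 17.2 and 33.1 CPM in the WT mice and 2324, 2349 and 2568 CPM in the knock-in mice (6.80 ± 0.30). The secreted inhibitor Cst3 had 13473, 15043 and 13989 CPM in WT and 13268, 13886 and 13256 CPM in App NL-G-F mice and was not called (-0.07 ± 0.10, adjusted p = 0.582). The protease genes that were lower were Napsa (-2.03), Ctsk (-1.06), Lgmn (-0.25) and Ctsf (-0.21), of which Lgmn, the asparaginyl endopeptidase legumain, is abundant at 3142 CPM in WT.

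Of 36 glycosidases, lipases and sulfatases 26 were higher (median 0.64), led by Pld3 (2.13), an exonuclease of the phospholipase D family, Gla (α-galactosidase, 1.84), Glb1 (β-galactosidase, 1.78), the lysozyme Lyz2 (1.72), Gusb (β-glucuronidase, 1.64) and Hexa (1.46). Lipa (0.98), which hydrolyses cholesteryl esters, was higher. The 5 lower members were Sgsh (-1.44), a heparan sulfatase, Pld4 (-0.58), Acp2 (-0.41), Ids (-0.37) and Hgsnat (-0.22). Of these, Sgsh, Ids and Hgsnat act in the breakdown of heparan sulfate, and Naglu (1.30) of the same route was higher.

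The membrane of the lysosome and its proton pump changed in the same direction. Of 26 membrane proteins 19 were higher (median 0.53). Gpnmb, a glycoprotein of lysosomes and melanosomes (chromosome 6, 49036546 to 49070929), had 3.42, 4.15 and 26.9 CPM in the WT mice and 1131, 1196 and 2130.5 CPM in the knock-in mice (7.05 ± 0.69), with the third library highest in both genotypes. Cd68 (1.49 ± 0.09), Cd63 (1.91 ± 0.09), Lamp1 (0.74) and Lamp2 (0.69) were higher, as were the cation channels Mcoln2 and Mcoln3, both close to the limit of detection in WT mice. Mcoln3 lay at 0.0685, 0.0593 and 0.596 CPM in WT and 10.0, 7.61 and 16.4 CPM in App NL-G-F mice, while Mcoln1 (0.21, adjusted p = 0.0507) was not called. The cholesterol exporters of the lysosome differed: Npc2, the soluble carrier, had a log2 fold change of 1.23 ± 0.07 and Npc1, the membrane protein, of 0.10 ± 0.08 with an adjusted p of 0.382. Slc29a3 (-0.56), a nucleoside transporter, was the one lower member. Of 20 subunits of the V-ATPase 15 were higher, most of them by less than a factor of 2, and 2 lower. Atp6v0d2, an alternative subunit known from osteoclasts (chromosome 4, 19876841 to 19922605), had 0.205, 0.712 and 0.447 CPM in the WT mice and 58.3, 67.5 and 81.1 CPM in the knock-in mice (7.18 ± 0.28), whereas its common counterpart Atp6v0d1 changed by 0.43 ± 0.05. Likewise Atp6v0a1 was higher (0.39) and the paralog Atp6v0a2 lower (-0.73).

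Regulators of lysosome formation showed no common direction, with 5 of 12 higher and 5 lower (3 lower without the first or the second App NL-G-F or the third WT library). The factors TFEB, TFE3, MITF and TFEC bind the same DNA element. Mitf was higher (0.90 ± 0.05), Tfe3 (-0.31 ± 0.08) and Tfec (-0.83) were lower, the call of Tfec being lost in 9 of 14 alternatives, and Tfeb had 52.8, 56.1 and 53.9 CPM in WT and 48.6, 48.8 and 53.5 CPM in App NL-G-F mice with no call (-0.11 ± 0.08, adjusted p = 0.287). Of the small GTPases that recruit them and mTORC1 to lysosomes, Rragd rose most (2.57 ± 0.15) and Rragc by 0.53. The core autophagy machinery had a median of -0.02 and 8 of 29 higher, and that small balance turned to 6 higher and 12 lower with library totals alone. The higher ones were mostly cargo receptors and ATG8 proteins, namely Optn (1.29), Sqstm1 (0.93), Gabarapl1 (0.60), Gabarap (0.58), Map1lc3a (0.39) and Map1lc3b (0.29), with Atg7 (0.85) and Atg5 (0.19), and the lower ones were Rubcn (-0.44), Rb1cc1 (-0.41), Ulk2 (-0.33) and Atg14 (-0.26). The calls of Atg5 and Atg14 were lost in 11 and 10 of 15 alternatives.

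The element bound by TFEB and its relatives, TCACGTGA, a palindrome that reads the same on both strands and contains the shorter CACGTG, was looked for in the promoters of these genes because many of them changed together. A promoter here is the RefSeq stretch from 250 bases before to 50 after a gene's start in GRCm38.p6. It was held by 10 of the 111 lysosomal genes with a promoter in the table (9.01%) and by 1.12% of all 27025 genes there, or 2.02% of the tested ones. It was in 8 of the 67 higher members (Gla, Ctsd, Ctsa, Atp6v1a, Atp6v0e, Clcn7, Atp6v0d1 and Cln3) and in 2 of the 44 others (Mcoln1 and Atg3). CACGTG alone was in 27 of these promoters (24.3%), in 8.09% of all and in 11.3% of the tested genes. It was in 19 of the 67 higher members and in 8 of the 44 others, of which 5 were called lower (Sgsh, Rubcn, Atg14, Lgmn and Ctsf). The promoters of 4 genes are shown, each in the direction of the gene with matches of TCACGTGA in capitals, because they belong to a protease, 2 other hydrolases and a proton pump subunit that were all upregulated: Ctsd (chr7:142387778-142388077, minus strand), Ctsa (chr2:164833523-164833822, plus strand), Gla (chrX:134600956-134601255, minus strand) and Atp6v1a (chr16:44139210-44139509, minus strand).
Ctsd: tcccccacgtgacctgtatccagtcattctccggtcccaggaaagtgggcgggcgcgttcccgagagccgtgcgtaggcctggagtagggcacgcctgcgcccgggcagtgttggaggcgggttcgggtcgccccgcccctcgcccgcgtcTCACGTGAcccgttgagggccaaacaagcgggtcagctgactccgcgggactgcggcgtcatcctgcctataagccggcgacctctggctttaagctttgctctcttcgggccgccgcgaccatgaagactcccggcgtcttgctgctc
Ctsa: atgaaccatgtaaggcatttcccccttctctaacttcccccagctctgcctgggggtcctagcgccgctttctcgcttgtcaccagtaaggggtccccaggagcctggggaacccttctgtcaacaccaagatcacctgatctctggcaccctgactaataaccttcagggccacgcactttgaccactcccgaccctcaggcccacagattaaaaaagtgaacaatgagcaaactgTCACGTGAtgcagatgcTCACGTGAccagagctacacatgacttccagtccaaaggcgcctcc
Gla: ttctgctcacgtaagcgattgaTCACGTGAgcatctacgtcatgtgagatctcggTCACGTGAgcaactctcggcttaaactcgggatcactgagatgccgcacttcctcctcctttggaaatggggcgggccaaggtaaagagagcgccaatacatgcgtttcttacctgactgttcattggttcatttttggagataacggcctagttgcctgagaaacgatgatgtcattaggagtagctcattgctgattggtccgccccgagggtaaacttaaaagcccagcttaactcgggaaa
Atp6v1a: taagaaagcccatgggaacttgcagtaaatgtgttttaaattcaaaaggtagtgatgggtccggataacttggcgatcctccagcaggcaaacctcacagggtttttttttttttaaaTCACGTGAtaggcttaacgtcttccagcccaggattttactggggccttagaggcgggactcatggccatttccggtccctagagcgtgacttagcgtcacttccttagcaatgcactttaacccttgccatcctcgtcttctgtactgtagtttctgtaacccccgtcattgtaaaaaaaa
Ctsa (1.10), the protective protein of β-galactosidase, and Gla (1.84) hold 2 matches each, and Ctsd (1.77) and Atp6v1a (1.02) hold 1. A match describes letters in this window and not binding. The share over the list is a trait of the listed genes and no evidence on the genotype effect.

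Lipid genes were more often higher than lower. Over 94 tested genes of 4 lists 51 were higher and 8 lower. Apoe, the main lipid carrier of the brain (chromosome 7, 19696109 to 19699188), had 1698, 1673 and 1955 CPM in the WT mice and 18829.9, 19905 and 21324 CPM in the knock-in mice (3.50 ± 0.11, a factor of 11.3), and its share of all counts went from 0.190 ± 0.0187% to 1.88 ± 0.102%. By transcripts per exon length it moved from rank 39 to rank 2, behind Cst3. Apoc1 rose from 0.675 to 2.71 CPM (2.0), and Apoc4, its neighbour in the same cluster, lay at 0, 0 and 0.149 CPM in WT and 2.14, 2.95 and 11.3 CPM in App NL-G-F mice. Lpl, which releases fatty acids from lipoproteins (chromosome 8, 68880491 to 68907448), had 29.9, 32.4 and 39.1 CPM in the WT mice and 1162, 1203 and 1215 CPM in the knock-in mice (5.14 ± 0.11), the lowest p-value of all genes. Ch25h, which makes 25-hydroxycholesterol, had 2.46, 1.6 and 5.22 CPM in the WT mice and 55.8, 56.0 and 88.3 CPM in the knock-in mice (4.46 ± 0.37). Receptors for uptake went both ways, with Olr1 (1.65) and Scarb1 (0.97) higher, Cd36 (-0.96 ± 0.13) lower, and Vldlr (-0.90 ± 0.37, adjusted p = 0.0754) and Lrp1 (-0.04 ± 0.08, adjusted p = 0.712) not called. Vldlr did pass in 6 alternatives, among them the edgeR fit of the 6 libraries alone (-0.91, adjusted p = 0.0114). The cholesterol transporter Abca1, which loads apolipoprotein E, was lower (-0.32 ± 0.07), with 486, 548 and 519 CPM in WT and 398, 402 and 448 CPM in App NL-G-F mice, and Abcg1 was not called (0.05 ± 0.07, adjusted p = 0.571). Soat1, which esterifies cholesterol, was higher (1.23 ± 0.06), and so was Clu (2.06 ± 0.42), a second apolipoprotein that astrocytes also make.

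Cholesterol synthesis enzymes and their regulators were higher in 16 of 22 cases and lower in 0 (median 0.67). These included Srebf2 (0.99 ± 0.07), the factor that drives the pathway, Hmgcs1 (0.83), Sqle (1.15), Cyp51 (1.36), Msmo1 (1.08) and Insig1 (1.13), while Lss (0.32), Nsdhl (0.08), Mvd (0.15), Tm7sf2 (0.34), Fdps (0.67) and Scap (0.04) were not called. Astrocytes use this pathway too, and the part of the higher astrocyte markers in it was not tested. In fatty acid synthesis and storage 15 of 28 were higher, led by the binding proteins Fabp3 (4.71 ± 0.33), Fabp5 (4.21 ± 0.20) and Fabp7 (2.37, an astrocyte transcript), Acaca, which makes malonyl-CoA (2.54 ± 0.16), the desaturase Fads2 (2.05 ± 0.41) and the droplet coat Plin2 (1.73 ± 0.18). Fabp5 had 16.2, 10.3 and 8.57 CPM in the WT mice and 212, 227 and 211 CPM in the knock-in mice. Scd1, the stearoyl-CoA desaturase, was lower (-1.16 ± 0.28), as were Lipe (-0.43) and Acsl1 (-0.41). Fatty acid oxidation changed little (median 0.13, -0.06 with library totals alone). Of these, 8 of 20 were higher, Echs1 most (1.17), Acads was lower (-0.29), and Cpt1a, the gate to the mitochondrion, was not called (0.14 ± 0.08, adjusted p = 0.198).

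Antigen presentation genes were upregulated in both classes. Cd74, the invariant chain of MHC class II, had 317, 335 and 376 CPM in the WT mice and 2839, 1975 and 2798 CPM in the knock-in mice (2.89 ± 0.22), and the chains H2-Aa (2.48 ± 0.27), H2-Ab1 (2.32 ± 0.24) and H2-Eb1 (1.69 ± 0.26) rose with it. Each of the 4 was lowest in the second App NL-G-F library, H2-Aa for instance with 862, 518 and 824 CPM, and none overlapped with WT. The peptide editors H2-DMa (0.59), H2-DMb1 (0.51), H2-Oa (0.84) and H2-Ob (0.63) were higher and H2-DMb2 (-0.64) lower. The master regulator Ciita had 4.45, 3.62 and 5.89 CPM in the WT mice and 10.2, 4.20 and 10.2 CPM in the knock-in mice and was not called (0.82 ± 0.37, adjusted p = 0.103), though it was without that library (1.14, adjusted p = 0.0208). Not called either were Rfx5 (-0.18), Rfxank (-0.16) and Rfxap (-0.26), which bind class II promoters. Over the whole class II list 9 of 18 were higher and 2 lower (9 higher and 5 lower with library totals alone). The lower calls fell to 0 without the first or the second App NL-G-F library or the second or the third WT library. Of the costimulators Cd80 was lower (-0.30, lost in 10 of 15 alternatives) and Cd86 (0.15) and Cd40 (-0.52) were not called. In class I 20 of 24 were higher (median 0.62). B2m, the light chain, had 1922, 1951 and 1824 CPM in the WT mice and 3933, 3847 and 3896 CPM in the knock-in mice (1.03 ± 0.08), and H2-D1 (1.34 ± 0.09), H2-K1 (1.06 ± 0.10) and the regulator Nlrc5 (1.30 ± 0.14) were higher with the transporter Tap1 (0.57) and the immunoproteasome subunit Psmb8 (0.70). H2-Q6 (1.61) and H2-Q7 (1.5) are near-identical copies, and how reads were divided between them is uncertain. Cd1d1, which presents lipids, was lower (-0.98 ± 0.17).

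Interferon-stimulated genes moved less, 20 of 43 higher and 3 lower (median 0.39; 13 higher and 4 lower with library totals alone), and 13 were called higher without the second or without the third WT library. Cxcl9 (1.77), Ifi27l2a (1.76), Ifi204 (1.35), Zbp1 (1.29), Oas1a (1.27) and Irf1 (1.24) rose most. Isg15 had 8.97, 6.52 and 7.38 CPM in the WT mice and 16.4, 13.5 and 9.71 CPM in the knock-in mice (0.80 ± 0.23), and its call was lost without the first App NL-G-F (0.61), the second WT (0.69) or the third WT library (0.77). Irf7 (0.03 ± 0.20, adjusted p = 0.929), Ifi44 (0.08), Mx2 (-0.04) and Oasl1 (-0.05) were not called, and Gbp3 (-0.87), Ddx58 (-0.32) and Parp14 (-0.21) were lower.

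The same search was made for 2 elements of these promoters. The letters ATTGG, found in the Y box of class II genes and read on both strands, were in 9 of 12 promoters of the class II list (75%). These include the regulators Rfx5 and Rfxank, and so short a motif was in 41.1% of all promoters. The core of the interferon-stimulated response element, GAAANNGAA, was held by 21 of 31 interferon-stimulated genes (67.7%) and by 9.76% of all, by 11 of 13 that were higher and by 10 of 18 others. The promoters of 3 genes are shown, in the direction of the gene, a class II chain with its Y box in capitals and 2 interferon-stimulated genes with the response element in capitals: H2-Aa (chr17:34287774-34288073, minus strand), Isg15 (chr4:156200769-156201068, minus strand) and Cxcl10 (chr5:92348840-92349139, minus strand).
H2-Aa: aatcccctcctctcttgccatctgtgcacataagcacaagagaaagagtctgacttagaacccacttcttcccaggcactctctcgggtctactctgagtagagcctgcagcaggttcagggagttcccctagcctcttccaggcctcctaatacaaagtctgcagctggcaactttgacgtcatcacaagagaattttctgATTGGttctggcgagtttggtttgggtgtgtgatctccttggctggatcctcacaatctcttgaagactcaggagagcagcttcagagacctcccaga
Isg15: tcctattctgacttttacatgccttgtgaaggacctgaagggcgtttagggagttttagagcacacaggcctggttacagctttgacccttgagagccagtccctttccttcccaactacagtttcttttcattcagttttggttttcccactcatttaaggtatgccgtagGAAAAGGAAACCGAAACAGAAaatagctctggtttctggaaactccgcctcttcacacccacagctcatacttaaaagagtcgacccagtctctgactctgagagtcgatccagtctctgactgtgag
Cxcl10: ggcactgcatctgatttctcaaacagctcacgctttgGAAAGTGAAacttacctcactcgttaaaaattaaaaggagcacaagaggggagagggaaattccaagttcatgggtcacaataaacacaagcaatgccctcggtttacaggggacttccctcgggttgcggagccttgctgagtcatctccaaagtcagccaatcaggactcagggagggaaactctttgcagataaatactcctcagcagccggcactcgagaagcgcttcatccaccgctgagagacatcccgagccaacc
Isg15 holds 3 overlapping matches in 1 run, and H2-Aa and Cxcl10 (0.94) hold 1 each. Here too the shares are traits of the listed genes and no evidence on the genotype effect.

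Homeostatic genes were mostly downregulated. Of 48 members 32 were lower and 8 higher, with a median log2 fold change of -0.42, against 16.9% lower over all genes. Crybb1 had 185, 215 and 199.5 CPM in the WT mice and 46.5, 45.4 and 45.2 CPM in the knock-in mice (-2.13 ± 0.10). Tmem119, a membrane protein specific to microglia, had 1570.3, 1739 and 1843 CPM in the WT mice and 683, 680.4 and 884 CPM in the knock-in mice (-1.20 ± 0.12, 56.4% lower), and the ADP receptor P2ry12 2629, 2732 and 2864 CPM in the WT mice and 1336, 1339 and 1279 CPM in the knock-in mice (-1.06 ± 0.06, 51.9% lower). Ecscr (-1.90), the transcription factor Klf2 (-1.63), Upk1b (-1.26), the adhesion receptor Adgrg1 (-1.14) and the fructose transporter Slc2a5 (-1.0) were lower by about a factor of 2 or more. Smaller decreases were measured for Cx3cr1, the fractalkine receptor (-0.44 ± 0.06), and Csf1r, the receptor that keeps microglia alive (-0.37 ± 0.06), at 8114 CPM in WT and 6288 CPM in App NL-G-F mice. The third App NL-G-F library kept the highest Tmem119 of its group. Members that were higher included Tgfbr2 (0.65 ± 0.06), Fcrls (0.41 ± 0.09), Mef2c (0.32), Gas6 (0.30), Nrros (0.27), Csf3r (0.21) and Pros1 (0.14), though Pros1 turned to -0.054 with library totals alone. Only 4 members were called higher without the first WT library and 5 without the first or second App NL-G-F or the third WT library. Mertk (-0.05), Olfml3 (-0.11) and Sall3 (0.02) were not called.

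The list of disease-associated microglia genes was collected from such microglia, including those of this mouse model, so its direction is no independent evidence. Of its members 45 of 46 were higher, with a median log2 fold change of 2.27, and the one not called was Ms4a7 (-0.26 ± 0.26, adjusted p = 0.461), a border macrophage transcript. The size of the increase varied widely within the list. Trem2, the lipid and amyloid receptor, had 852, 935 and 964 CPM in the WT mice and 2417, 2552 and 2619 CPM in the knock-in mice (1.46 ± 0.08), and its signalling adaptor Tyrobp 745, 783 and 784 CPM in the WT mice and 2106, 2313 and 2471 CPM in the knock-in mice (1.57 ± 0.09), increases of 2.76 and 2.98 fold. Itgax, the CD11c integrin chain, rose 38.5 fold (5.27 ± 0.14) and Spp1, osteopontin, 62.4 fold (5.96 ± 0.47), from 20.7, 26.8 and 48.7 CPM to 1339.8, 1485 and 3155 CPM. The β-glucan receptor Clec7a (3.98 ± 0.14), the phosphatidylserine receptor Axl (3.48 ± 0.08), Csf1, the ligand of CSF1R (3.69 ± 0.15), the pyrophosphate exporter Ank (3.51) and the chemokine Ccl6 (3.02) rose between 8.11 and 15.8 fold. At the low end, Itgb5 changed by 0.32 ± 0.08 and Tspo, a mitochondrial protein used as an imaging marker, by 0.89 ± 0.09.

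**Figure D3:**
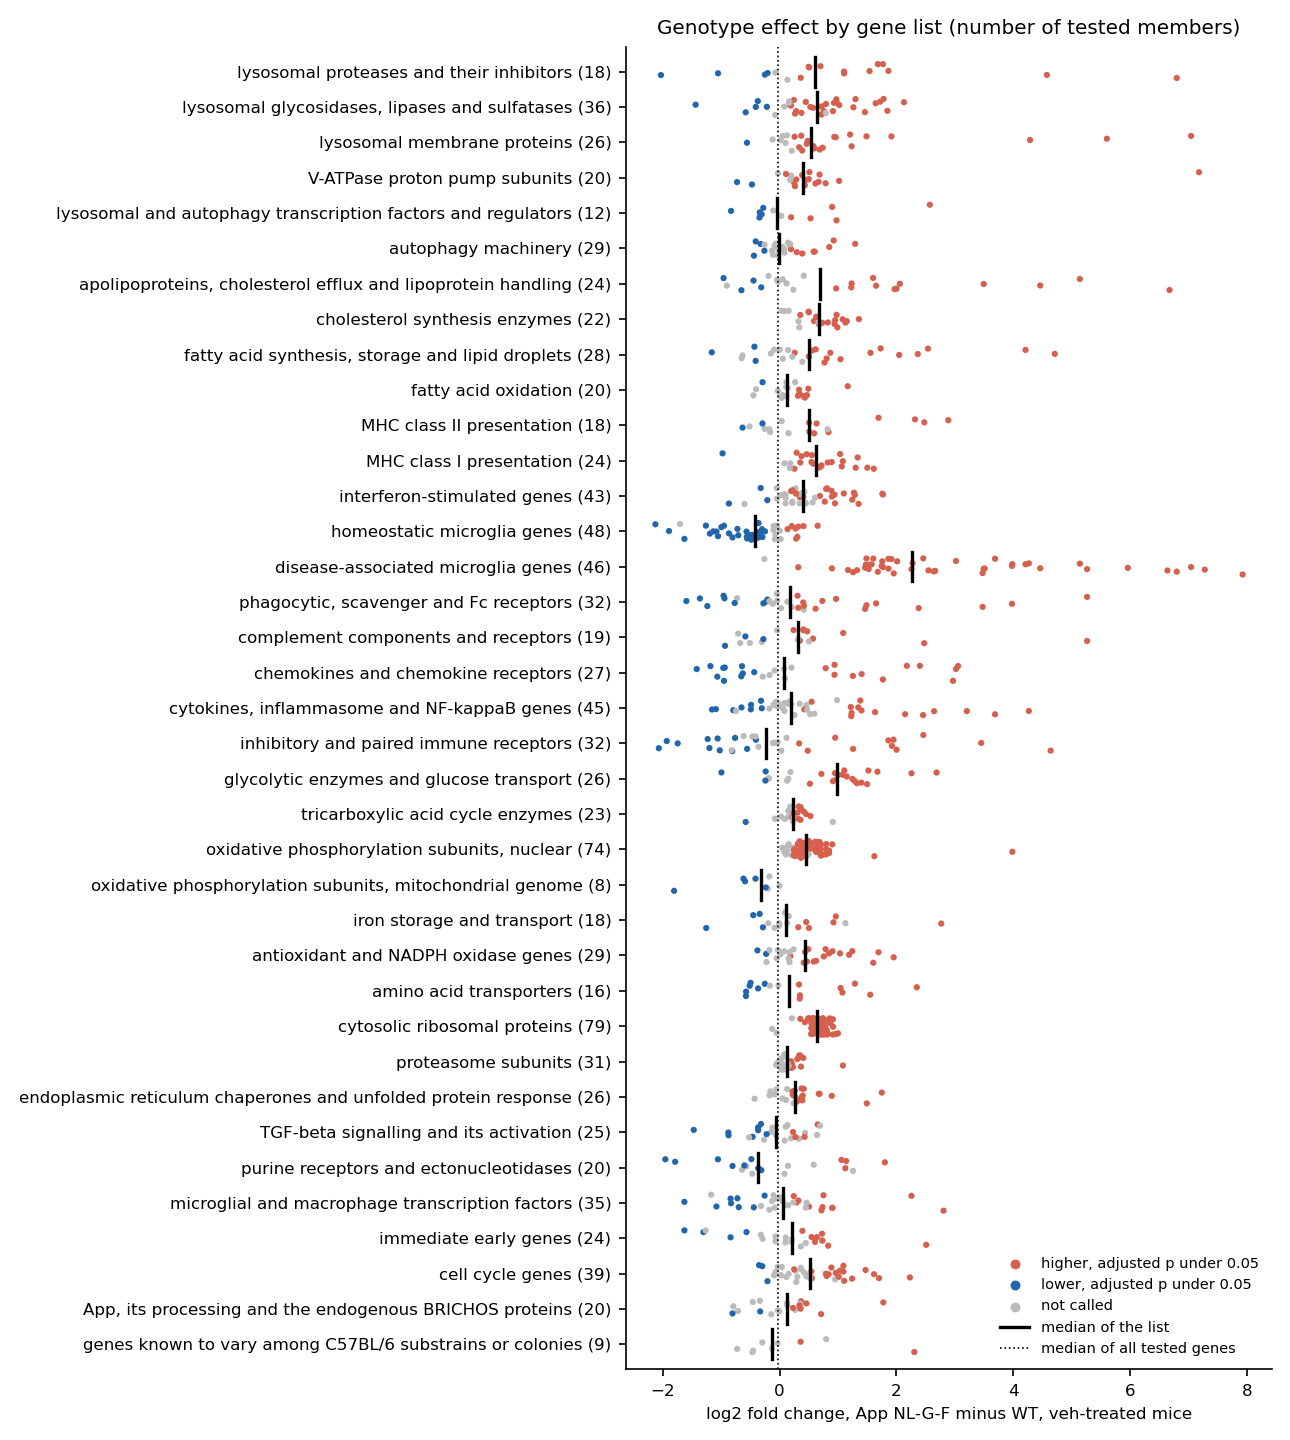
Log2 fold change of App NL-G-F over WT veh-treated mice (x axis) for each tested member of 37 gene lists (rows, with the number of tested members), higher genes in red, lower in blue and genes not called in grey. Black bars are list medians and the dotted line is the median of all tested genes (-0.02), and the homeostatic list lies mostly left of it while the disease-associated list lies almost wholly to the right.

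Receptors for uptake were split. Of 32 phagocytic, scavenger and Fc receptors 14 were higher and 9 lower, and the median of 0.17 became -0.02 with library totals alone. Cd14, the lipopolysaccharide coreceptor, rose by 2.38 ± 0.16, Fcgr2b, the inhibitory Fc receptor, by 0.73 ± 0.06, and the common γ chain Fcer1g by 0.61 ± 0.08. Fcgr1 was lower (-0.21 ± 0.04), as were Itgam, which encodes the CD11b used to isolate the cells (-0.28 ± 0.06), Elmo1 (-0.95), which links uptake receptors to the cytoskeleton, and the scavenger receptor Stab1 (-1.37 ± 0.10). Stab1 and Cd209a (-1.60), which was also lower, are known from border macrophages, of whose 12 listed markers 9 were lower, 1 was higher and 2 were not called. Mertk, in contrast to the related Axl, was not called (-0.05 ± 0.05, adjusted p = 0.506).

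Complement genes were higher in 9 of 19 cases and lower in 3 (5 lower without the third App NL-G-F library). The 3 chains of C1q, abundant in all mice, rose a little, C1qa by 0.57 ± 0.08, C1qb by 0.41 ± 0.08 and C1qc by 0.47 ± 0.08. The central component C3 rose from 12.2 to 68.3 CPM (2.48 ± 0.44) and C4b by 1.09 ± 0.25, the latter also an astrocyte product. The anaphylatoxin receptor C3ar1 was higher (0.35), C5ar1 was not called (0.31), C5ar2 was lower (-0.59), and so was properdin, Cfp (-0.94). Cfb, Cfi and Vsig4 had at most 5 counts in any of the 6 libraries and were not tested.

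Chemokines and their receptors showed 11 higher and 10 lower of 27 (11 higher and 11 lower with library totals alone), with large values in both directions. Cxcl14 (3.06 ± 0.34), Ccl6, Cxcr4 (2.97 ± 0.20), the neutrophil attractants Cxcl2 (2.40 ± 0.24) and Cxcl1 (2.18), Cxcl16 (1.40), Ccl3 (0.94 ± 0.17) and Ccl4 (0.79 ± 0.16) were higher. Ccl2, the monocyte attractant, had 102, 99.9 and 175 CPM in the WT mice and 39.0, 47.9 and 53.6 CPM in the knock-in mice and was lower (-1.42 ± 0.25), as were Ccl7 (-0.94), Ccl24 (-1.19) and Ccr2 (-0.97), the last a monocyte marker. Of 45 cytokine, inflammasome and NF-κB genes 15 were higher and 8 lower (14 higher and 12 lower with library totals alone). Il1b had 327, 314 and 354 CPM in the WT mice and 1768, 2243 and 1448 CPM in the knock-in mice (2.46 ± 0.23), its antagonist Il1rn rose by 2.64 ± 0.43, Tnf by 1.23 ± 0.23, Il12b by 3.21 and the sensor Nlrp3 by 1.35 ± 0.25. The feedback inhibitor Tnfaip3 rose by 1.22, whereas Nfkb1 (-0.06) and Myd88 (-0.05) were not called. Toll-like receptors split, with Tlr2 higher (2.15 ± 0.18) and Tlr3 (-0.49), Tlr4 (-0.65), Tlr5 (-1.09), Tlr8 (-1.16) and Tlr9 (-0.49) lower.

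Inhibitory and paired receptors had 11 higher and 11 lower of 32 (10 higher and 15 lower with library totals alone). Cd200r4 (4.64 ± 0.17), the checkpoint receptor Pdcd1 (3.45 ± 0.12) and its ligand Cd274 (2.0 ± 0.15), Lilrb4a (2.46 ± 0.13), Siglecf (1.92), Cd300lf (1.95) and Lag3 (0.95) were higher. Siglece (-1.93 ± 0.07), Siglecg (-2.07), Clec4a2 (-1.75), Clec4a3 (-1.20), Pirb (-1.03), Cd33 (-0.76 ± 0.05) and Siglech (-0.56 ± 0.07) were lower. Cd33 had 773, 715 and 801 CPM in the WT mice and 456, 443 and 449 CPM in the knock-in mice, without overlap. Many of these receptors have close paralogs, and the division of shared reads is not stated.

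Glycolysis was the metabolic list with the largest median, 0.98, with 18 of 26 higher. Hif1a, the hypoxia-inducible factor that drives these genes, had 145, 148 and 149 CPM in the WT mice and 698, 673 and 740.4 CPM in the knock-in mice (2.26 ± 0.06). Along the pathway the isomerase Gpi1 (1.32 ± 0.07), the phosphofructokinases Pfkl (1.0) and Pfkm (1.25), Aldoa (1.29 ± 0.07), Tpi1 (1.67 ± 0.08), Gapdh (1.15 ± 0.07), Pgk1 (1.52), Pgam1 (1.08), Eno1 (0.95), Pkm (1.40 ± 0.07) and Ldha (1.11 ± 0.09) were higher. The lactate exporter Slc16a3 rose by 1.5 and the glucose transporters Slc2a1 and Slc2a3 by 0.52 and 0.96, while Slc2a5 fell as given above. The first enzyme did not follow, since Hk2 (-0.19 ± 0.08, adjusted p = 0.0909) and Hk1 (0.13) were not called and Hk3 was lower (-0.24). Aldoc (2.69) is also an astrocyte marker. Pkm had 364, 378 and 385 CPM in WT and 988, 988 and 994 CPM in knock-in mice. The part of the higher astrocyte markers in this list was not tested. Of the tricarboxylic acid cycle 11 of 23 enzymes were higher (median 0.23), for instance Cs (0.53 ± 0.08), and Idh2 was lower (-0.58 ± 0.09). With library totals alone, only 4 of them were higher and 3 lower.

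Nuclear and mitochondrial genes of the respiratory chain moved in opposite directions. Of 74 nuclear subunit genes 64 were higher and 0 lower (median 0.44), such as Cox4i1 (0.70 ± 0.07) and Uqcrh (0.75 ± 0.08), with the muscle form Cox6a2 far above the rest (3.98 ± 0.23, 3.09 to 49.1 CPM). Of 8 tested genes of the mitochondrial genome 0 were higher and 5 lower, among them mt-Nd1 (-0.59 ± 0.09) and mt-Cytb (-0.24 ± 0.07). The 5 others of the 13 had at most 9 counts in any of the 6 libraries and were not tested. How reads shared with nuclear copies of mitochondrial genes were counted is not given in the sources used here, and its part in these levels was not tested. Together the 13 genes took 1.5 ± 0.0712% of the counts in WT and 1.08 ± 0.0627% in App NL-G-F mice.

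Cytosolic ribosomal protein genes were higher in 76 of 79 cases and lower in 0, within a narrow range (median 0.65). Examples are Rpl41 (1.0 ± 0.13), Rps28 (0.96 ± 0.17) and Rplp1 (0.49 ± 0.12), and Rps10 (-0.13) and Rpl24 (0.21) were not called. Their share of all counts was 2.21 ± 0.125% in WT and 3.06 ± 0.301% in App NL-G-F mice. Proteasome subunits had 12 of 31 higher and 0 lower (3 higher and 9 lower with library totals alone) with a median of 0.12, and Psmb6 stood out (1.08 ± 0.10). Of 26 genes of the endoplasmic reticulum 17 were higher and 0 lower (9 higher and 3 lower with library totals alone), the chaperones Hspa5 (0.34 ± 0.10), Calr (0.67) and Sdf2l1 (1.49) among them, whereas the stress factors Ddit3 (-0.43, which passed in 5 alternatives), Atf4 (-0.06) and Xbp1 (-0.16) were not called.

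Fold changes ran with the summed exon length of genes, and ribosomal and nuclear respiratory chain genes are short. Among protein-coding genes of at least 10 CPM the median log2 fold change was 0.54 for the 121 genes with a summed exon length of up to 1000 bases, 0.26 up to 1500, 0.18 up to 2000, 0.09 up to 3000, and -0.06 for the 3380 genes over 6000 bases. Without the ribosomal and respiratory chain genes the first 3 values were 0.41, 0.22 and 0.15. The shortest bin lay 0.43 to 0.58 above the WT mean in the 3 App NL-G-F libraries and between -0.03 and 0.05 in the WT libraries. The median exon length was 1770.0 bases for ribosomal protein genes and 1696 for nuclear respiratory chain genes, against 3426 for lysosomal hydrolases, 3646 for disease-associated genes and 3698 for homeostatic genes. The 8 tested genes of the mitochondrial genome went the other way, with a median exon length of 1091 bases and a median log2 fold change of -0.33. The part of exon length in these results was not tested.

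**Figure D4:**
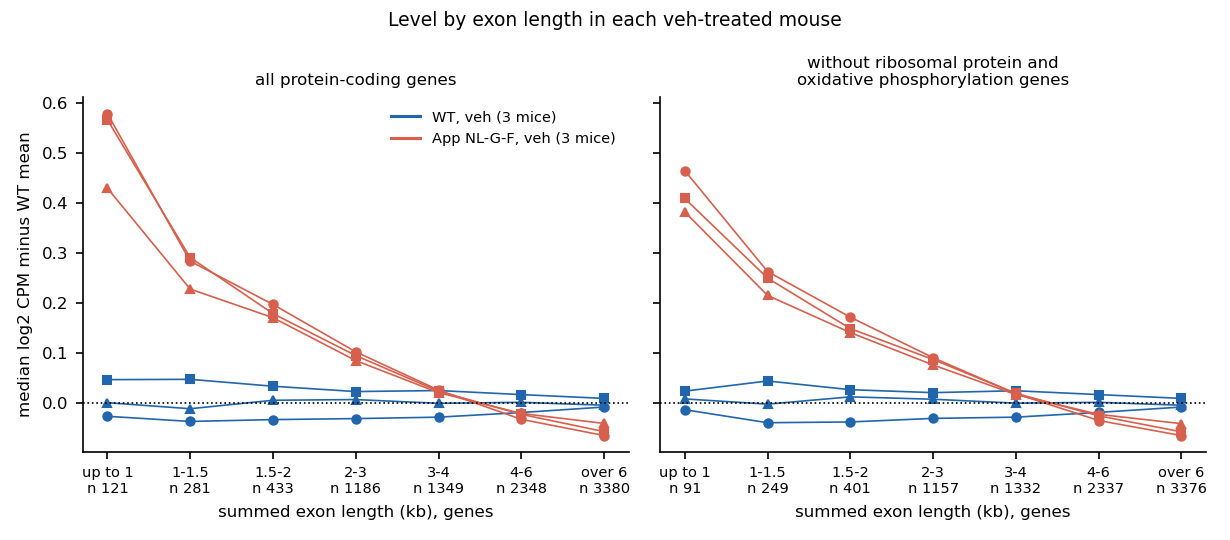
Median log2 CPM minus the mean of the WT mice (y axis) for protein-coding genes of at least 10 CPM in bins of summed exon length (x axis, with the number of genes), 1 line per veh-treated mouse, WT in blue and App NL-G-F in red. In all 3 App NL-G-F mice the median falls from 0.43 or more in the shortest bin to below 0 in the longest, with (left) and without (right, 0.38 or more) the ribosomal and respiratory chain genes.

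Genes of oxidant defence were higher in 17 of 29 cases and lower in 2. The peroxiredoxins Prdx6 (1.95 ± 0.23), Prdx4 (1.69 ± 0.09) and Prdx1 (0.79 ± 0.06) and the regulator Nfe2l2 (1.03 ± 0.13) rose, as did the membrane subunits of the phagocyte NADPH oxidase, Cybb (1.6 ± 0.13) and Cyba (0.85 ± 0.06), while Ncf1 was not called (0.08) and Ncf4 was lower (-0.23). Prdx6 is abundant in astrocytes. Iron genes had no common direction (6 higher and 4 lower of 18, 5 higher and 6 lower with library totals alone). Slc40a1, the iron exporter ferroportin, was lower (-1.26 ± 0.06), the reductase Cybrd1 rose from 0.800 to 5.42 CPM (2.77), the ferritin light chain Ftl1 rose by 0.32 ± 0.10, and the heavy chain Fth1 was not called (0.09). Among amino acid transporters (8 higher and 6 lower of 16, 4 higher and 7 lower with library totals alone) the cystine importer Slc7a11 rose most (2.35 ± 0.35) and the leucine importer Slc7a5 fell (-0.58 ± 0.08).

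Signals that maintain homeostatic microglia changed unevenly. Of 25 TGF-β genes 4 (16%) were higher and 8 (32%) lower, against 20.1% and 16.9% of all tested genes. The median was -0.06, and with library totals alone 2 were higher and 13 lower. Without the first or the second library of either genotype 2 were higher. The type I receptor Tgfbr1 was lower (-0.46 ± 0.06) and the type II receptor Tgfbr2 higher, the effector Smad3 was lower (-0.32), and the ligand Tgfb1, at 337 CPM in WT, was not called (0.20 ± 0.09, adjusted p = 0.121). Eng (-0.88) and Ltbp4 (-0.88) were lower, of which Eng is also an endothelial transcript. Of 20 genes of purine receptors, related receptors and ectonucleotidases 9 were lower and 4 higher (median -0.36). The lower ones included the purine receptors P2ry13 (-0.81 ± 0.06), P2ry6 (-0.36) and P2rx7 (-0.48), the related receptor Gpr34 (-0.37) and the ectonucleotidase Entpd1 (-0.31). P2rx4 was higher (1.14 ± 0.09), with 61.8, 64.8 and 60.5 CPM in the WT mice and 127, 129.5 and 156 CPM in the knock-in mice.

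Of 35 transcription factors of macrophages 11 were higher and 8 lower (9 higher and 13 lower with library totals alone). Bhlhe40, a basic helix-loop-helix repressor, had 23, 24.4 and 23 CPM in the WT mice and 172, 182 and 139 CPM in the knock-in mice (2.81 ± 0.15), and its relative Bhlhe41 rose by 0.75 ± 0.10. Sall1, which sets microglial identity, had 811, 856 and 914 CPM in the WT mice and 498, 498 and 567 CPM in the knock-in mice and was lower (-0.72 ± 0.08), as were Maf (-1.08 ± 0.08), Klf2 and Mef2a (-0.44 ± 0.05). Spi1, which encodes PU.1, was not called (-0.18 ± 0.08, adjusted p = 0.109) but passed in 4 alternatives (-0.18 to -0.37). Not called either were Runx1 (0.06) and Cebpa (0.14), whereas Irf8 was higher (0.50 ± 0.07). The letters GAGGAAGT, a form of the PU.1 site, were in 2 of 32 homeostatic promoters (6.25%) and in 3.69% of all.

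Immediate early genes, which answer within minutes to stimulation and to tissue digestion, were abundant in both genotypes. Egr1 had 2469, 2768 and 2328 CPM in the WT mice and 1724, 2417 and 3062 CPM in the knock-in mice and was not called (-0.07 ± 0.18), and neither was Fos (0.21 ± 0.23, adjusted p = 0.507). Of the list 8 of 24 were higher, Nr4a3 most (2.51 ± 0.40), and 4 lower, Jun (-0.57 ± 0.16) and Hspa1a (-1.31) among them, which became 3 higher and 7 lower with library totals alone. Without the first WT library 3 were called higher, and 4 without the second or the third App NL-G-F or the third WT library. The part of the digestion in these levels was not tested.

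Cell cycle genes, low on average, were higher in App NL-G-F mice in 18 of 39 cases, with a median of 0.51. Another 3 were lower (0 without the first or the second App NL-G-F or the third WT library). Mki67, a marker of dividing cells, had 13.5, 13.7 and 10.4 CPM in the WT mice and 24.4, 25.7 and 23.1 CPM in the knock-in mice (0.96 ± 0.20), and the mitotic kinase Cdk1 rose from 3.88 to 11.9 CPM (1.62 ± 0.14) with the cyclins Ccnb1 (1.70) and Ccna2 (1.04). The inhibitor Cdkn1a, which stops the cycle and is counted among the 18, rose most (2.23 ± 0.19, 63.8 to 299.6 CPM). The replication licensing gene Mcm2 (-0.35) was lower.

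Genes that act on the amyloid precursor protein had a median log2 fold change of 0.13, which turned to -0.06 with library totals alone. Aplp2, a paralog of App, rose by 1.77 ± 0.08, with 260.2, 226 and 232 CPM in WT and 804, 817 and 837 CPM in App NL-G-F mice, and Aplp1 was not called (-0.72). The α-secretase Adam10 was lower (-0.33 ± 0.04), the β-secretase Bace1 was not called (-0.79 ± 0.38, adjusted p = 0.126; it passed in 3 alternatives), and of the γ-secretase Psen2 (0.46) and Ncstn (0.37) were higher. Ide, which degrades amyloid-β, was higher by 0.36 ± 0.08, and Mme, which encodes the degrading enzyme neprilysin, had at most 12 counts in any of the 6 libraries and was not tested. Itm2b, which encodes Bri2, had 2538, 2828 and 2726 CPM in the WT mice and 3462, 3368 and 3414 CPM in the knock-in mice (0.34 ± 0.06), its paralog Itm2c rose by 0.71 ± 0.07, and Itm2a, an endothelial transcript, was lower (-0.81 ± 0.16). The balance of this list, 7 higher and 2 lower, became 4 and 6 with library totals alone. Of 9 tested genes known to differ between C57BL/6 colonies, Ide and Gabra2 (2.31, 0.563 to 2.85 CPM) were called higher and 0 lower (1 higher and 4 lower with library totals alone). The share called higher, 22.2%, lay near the 20.1% of all tested genes. The methods name the Jackson Laboratory as the source beside the background strain. Whether both genotypes were bred in the same colony is not given in the sources used here, and genotype and colony cannot be told apart.

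The same genotype difference was measured in the other 6 mice, which received rh Bri2 BRICHOS R221E and share no library with those above. Both differences come from 1 fit with a shared estimate of the spread, so their calls are not independent. In the other mice 6560 genes (42.5%) were called. Of the 5710 genes called in veh-treated mice, 5376 (94.2%) had the same sign in the other mice, compared with 78.7% of all tested genes, and 4110 were called there with the same sign, which is 72.0% of the first and 62.6% of the second set. Log2 fold changes in the other mice were 3.30 for Apoe, 5.42 for Lpl, 7.42 for Cst7, 2.05 for Ctsd, 2.42 for Cd74, -0.99 for Tmem119, -0.96 for P2ry12 and 2.50 for Hif1a. Gpnmb, Atp6v0d2 and Dkk2 had 8.90, 8.14 and 7.80. A test of the difference between the 2 genotype effects called 1 gene (0.00648%), Cald1, which encodes the actin-binding protein caldesmon, and 2279 genes had an unadjusted p-value under 0.05.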

How the data were processed

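RNA-seq libraries of CD11b-positive cortical cells of 12 mice (3 in each of 4 groups) were analysed as the counts per gene that the authors deposited. Per the labels and the methods, reads were made with a stranded mRNA kit, aligned with STAR to GRCm38 and counted with featureCounts 1.5.1 on GENCODE M21. The strand and multi-mapping settings are not given in the sources used here, so near-identical paralogs and overlapping genes are uncertain. All columns were mapped to samples by name, and 0 were left out.

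Counts were tested in edgeR 4.0.16 (R 4.3.3) with TMM scaling, filterByExpr at a minimum count of 10 and the quasi-likelihood test, with 1 mean per group over all 12 libraries. The genotype contrast used the 6 veh-treated mice, and p-values were adjusted by Benjamini-Hochberg over all tested genes at a threshold of 0.05. The study's own test, DESeq2, was an alternative (DESeq2 1.42.0). CPM use TMM-scaled library sizes, and log2 CPM a prior count of 2. The edgeR fit was tested on simulated data. Library totals were 12433402 to 16391851, replicates differed by 5.84 to 18.6 times the sampling noise (chi-square per degree of freedom), and the detection limit of 3 counts covers counting error only. Scores of marker lists were compared by two-sided exact permutation tests.

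The gene lists and members were chosen with earlier results of these data known. Named genes were App and Itm2b, list members (up to 6 called members per direction with the largest change, members of best known role and members not called), the 10 highest and 10 lowest fold changes among called genes that did not overlap at 5 CPM or more, the 10 lowest p-values and genes called in the difference between treatments. Some list members are not reported here. Some members beyond 6 were named after their values were seen. Where a symbol had several identifiers, the more abundant was kept. Replicate numbers were not used to pair the mice in the main fit. Promoters were RefSeq sequences of GRCm38.p6. In the main fit the p-values rest on the spread between the 3 mice within each of the 4 groups. That spread is estimated over all 12 libraries, with information shared between genes.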

Additional observations from a re-analysis of the deposited data

Results flagged for a closer look

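The genotype effect on Cald1, which encodes the actin-binding protein caldesmon of smooth muscle and other cells, differed between the 2 treatments by a test of the difference itself. Cald1 had 27.8, 26.2 and 27.3 CPM in the WT mice and 18.3, 20.4 and 18.8 CPM in the knock-in mice. The log2 fold change of App NL-G-F over WT was -0.50 ± 0.08 after vehicle and -1.62 in mice given rh Bri2 BRICHOS R221E, a difference of -1.12 (edgeR quasi-likelihood, adjusted p = 0.00834). It was the 1 gene called among 15425, with 2279 at an unadjusted p-value under 0.05. Leaving out single libraries gave 0 to 90 called genes, with 0 without the second WT veh or the third treated App NL-G-F library, 65 without the third WT veh library and 90 without the third App NL-G-F veh library. Markers of mural cells, a list that includes other smooth muscle genes, were lower in 3 of 12 cases in the knock-in mice given vehicle, and their part in this difference was not tested.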

How the results depend on the processing

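More genes were called higher than lower under DESeq2, its size factors, a fit of the 6 libraries alone and a stricter or no filter on low counts. Upper quartile scaling turned this to 2699 higher and 3225 lower. Library totals alone moved the counts to 2004 higher and 5198 lower, and the number of lists with more higher than lower members from 31 to 20. Adding an absolute log2 fold change of at least 1 left 1601 genes, 1063 higher and 538 lower. Without 1 of the 6 libraries at a time 4485 to 5392 genes were called, and the difference between the 2 genotype effects was called for 0 to 90 genes. The fit with the replicate number as a block called 5991 genes (3209 higher). Deviations of same-numbered mice correlated weakly (0.056, 0.141 and 0.175), and those of differently numbered mice ranged from -0.20 to 0.11. Whether a number marks a shared batch is not given in the sources used here, and so few pairs cannot decide it. Under the block 8 TGF-β genes were higher instead of 4.

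Of 360 genes named, 309 were called, and 279 of these kept the call in every alternative. Pros1 turned to -0.054 with library totals alone. With 1 library left out, the call was lost for Acads, Atg14, Atg5, Bsg, C3ar1, Ccna2, Cd80, Csf3r, Ctsk, Ftl1, Gas6, H2-DMb2, Hgsnat, Hspa1a, Hspa5, Isg15, Jun, Map2, Mcm2, mt-Cytb, Ncf4, Nrros, Parp14, Pros1, Tfe3 and Tfec, and with library totals alone also for Ide, Itgb5, Map1lc3b and Ncstn. Not called, but past the threshold in at least 1 alternative, were App, Bace1, C5ar1, Cd86, Ciita, Cst3, Ddit3, Fdps, Hk2, Lrp1, Lss, Mcoln1, Mertk, Nfkb1, Olfml3, Rfx5, Rfxank, Rfxap, Spi1, Tfeb, Tgfb1, Vldlr and Xbp1. List medians moved by more than the spread between mice under library totals alone in 37 of 37 lists and under upper quartile scaling in 13. At 3 mice per group no exact permutation p can fall below 0.1, and genes under a few counts per library were not detectable at this depth.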

Other observations

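Per exon length (TPM, computed from the counts), the order of the most abundant transcripts changed below Cst3, which was first in both genotypes. Ctsd moved from rank 10 to rank 3 and Tyrobp from rank 25 to rank 9. Cst7 moved from rank 1881 to rank 13, from 81.0 ± 37.4 to 7255 ± 353 TPM (SD, n = 3).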
